A study of Mus musculus with 6 samples.

Results

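The 10 genes described here encode the enzymes that make cyclic AMP (cAMP) and some of the proteins that act on it. They are 6 adenylyl cyclases (*Adcy2*, *Adcy3*, *Adcy5*, *Adcy6*, *Adcy8* and *Adcy9*), the stimulatory G protein subunit Gαs (*Gnas*), a catalytic subunit of protein kinase A (*Prkaca*) and 2 transcription factors that respond to the kinase (*Creb1* and *Crem*). They were listed by their place in the pathway, and all 10 were found among the 32285 genes of the count tables. Each was followed in astrocytes and in pericytes, the contractile cells that wrap capillaries, and in astrocytes with and without a detected transcript of the β1-adrenergic receptor gene *Adrb1*.

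The cells came from the amygdala of mice labelled as wild-type male C57BL/6N. NoFC mice were placed in the conditioning context without a shock, FC mice received fear conditioning, NoFR mice were conditioned and stayed in the home cage on the next day, and FR mice were conditioned and underwent fear recall on the next day. Tissue was taken 90 min after the behaviour began and was dissociated with actinomycin D, triptolide and anisomycin, which block transcription and translation, in all groups. Cells were then sorted on ACSA-2, an epitope of the sodium pump subunit ATP1B2, and sequenced in 3 libraries of pooled hashtagged cells. The hashtags are listed for 16 mice, 4 in each group. Some cells carried a hashtag of no listed mouse, as given below, and comparisons by class and by *Adrb1* used cells whatever their hashtag.

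When a hormone or transmitter binds a Gs-coupled receptor such as the β1-adrenergic receptor, Gαs activates adenylyl cyclase, which makes cAMP from ATP. The membrane cyclases differ in what else controls them. The cyclase encoded by *Adcy8* is stimulated by calcium and calmodulin, that of *Adcy2* by G protein βγ subunits acting with Gαs, and those of *Adcy5* and *Adcy6* are inhibited by calcium. Protein kinase A is held inactive by its regulatory subunits until they bind cAMP, and the released catalytic subunits phosphorylate CREB and CREM among many targets, whereas the EPAC proteins (*Rapgef3* and *Rapgef4*) carry the signal to small GTPases.

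A unique molecular identifier (UMI) marks 1 captured transcript, and levels are given as CPM, the UMIs of a gene per 1000000 gene UMIs of the class. A barcode was called an astrocyte when it held at least 20 UMIs of the glutamate transporter genes *Slc1a2* and *Slc1a3* together and at most 3 of the pericyte genes *Vtn* and *Rgs5*, and a pericyte when it held at least 10 UMIs of *Vtn* and *Rgs5* and at most 5 of *Slc1a2* and *Slc1a3*. Of 13546 barcodes, 8757 were astrocytes (3557, 2503 and 2697 in libraries 1, 2 and 3) and 2260 were pericytes (880, 664 and 716). Their median depths were 9891 and 5006 UMIs. The libraries held between 31700569 and 42350059 gene UMIs, and shared at most 8 barcodes in a pair. The labels call all of the sorted cells astrocytes, but the pericytes had 677 CPM of *Atp1b2*, the gene of the sorted antigen, against 817 in astrocytes. All 8 astrocyte markers were detected in astrocytes, with summed levels of 19188 to 19757 CPM, and all 7 pericyte markers in pericytes, with 24845 to 25064. These sums include the genes of the class rule, so a large part of each was set by the rule. *Slc1a2* and *Slc1a3* had 8483 and 3875 CPM in astrocytes, and *Vtn* and *Rgs5* had 12500 and 5631 in pericytes. Smooth muscle markers summed to between 151 and 209 CPM in pericytes and to at most 0.603 in astrocytes. Endothelial markers summed to between 134 and 143 in pericytes and to at most 5.51 in astrocytes. Nearly all of the pericyte sum was *Flt1*, with a mean of 131 CPM over the libraries. *Cldn5* had 5.41 and *Ly6c1* 0.810 in pericytes, and *Pecam1* was at 1.40 in both classes.

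Several cyclases differed strongly between the classes, and the promoter windows of 2 with opposite patterns are shown with that of *Prkaca*. Each is 250 bases before to 50 bases after the annotated RefSeq start on GRCm38.p6, written 5′ to 3′ on the strand of the gene, with the letters TGACG or CGTCA, the short form of the cAMP response element to which CREB binds, in capitals. *Adcy2* is at chr13:68999492-68999791 on the reverse strand, *Adcy5* at chr16:35154614-35154913 and *Prkaca* at chr8:83972728-83973027, both on the forward strand.
Adcy2: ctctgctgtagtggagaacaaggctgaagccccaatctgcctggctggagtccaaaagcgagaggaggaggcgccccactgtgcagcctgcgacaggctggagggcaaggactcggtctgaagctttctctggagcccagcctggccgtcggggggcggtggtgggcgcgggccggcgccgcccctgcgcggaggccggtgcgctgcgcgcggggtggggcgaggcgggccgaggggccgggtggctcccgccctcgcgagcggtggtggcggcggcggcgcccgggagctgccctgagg
Adcy5: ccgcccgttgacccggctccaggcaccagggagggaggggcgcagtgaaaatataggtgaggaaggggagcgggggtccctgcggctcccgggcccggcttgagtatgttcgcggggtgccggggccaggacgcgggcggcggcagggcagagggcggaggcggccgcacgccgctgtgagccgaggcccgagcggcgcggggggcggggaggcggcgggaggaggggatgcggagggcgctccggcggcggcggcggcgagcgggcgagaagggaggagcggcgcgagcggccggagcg
Prkaca: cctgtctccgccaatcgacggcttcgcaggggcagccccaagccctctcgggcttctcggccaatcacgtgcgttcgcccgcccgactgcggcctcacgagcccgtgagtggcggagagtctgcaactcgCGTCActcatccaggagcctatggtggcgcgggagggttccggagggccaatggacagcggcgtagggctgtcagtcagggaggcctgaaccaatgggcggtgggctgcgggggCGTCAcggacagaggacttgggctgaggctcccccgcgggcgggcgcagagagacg
Neither cyclase window held the short element, and that of *Prkaca* held 2. Searched on both strands, TGACG was in 20.8% of all 32851 promoter windows of this length and its palindromic full form TGACGTCA, which contains the short form on each strand, in 1.79%. RefSeq windows were found for 7 of the 10 genes, 12 windows in all. None held the full element, and the short element was in the window of *Adcy9*, in 1 of 2 windows of *Prkaca* and in 3 of 4 windows of *Gnas*. The *Gnas* windows that start at 174327499 and 174327518 of chromosome 2 overlap and hold the same site. The G and C content was 75% in the *Adcy2* window and 79.0% in the *Adcy5* window, against a median of 52.7% over all windows.

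Astrocytes and pericytes had different mixtures of adenylyl cyclase transcripts. *Adcy2* and *Adcy8* were abundant in astrocytes and had pericyte levels under 1% of the astrocyte level, *Adcy5* and *Adcy6* were higher in pericytes, and *Adcy3* and *Adcy9* were found in both classes with moderately higher levels in pericytes. *Gnas* was also higher in pericytes, and of the 2 transcription factors only *Crem* was higher in astrocytes. In edgeR's quasi-likelihood test on the sums of each class in each library, with the library as a block and Benjamini-Hochberg adjustment over 15361 genes, all 10 genes passed an adjusted p of 0.05, with 3 higher and 7 lower in astrocytes. Most genes did so: 79.6% of those tested passed, 42.8% higher and 36.9% lower in astrocytes. The median log2 fold change of astrocytes over pericytes was −0.37 for the 10 genes and 0.10 for all genes tested, and the latter was −0.12 with scaling by library size alone. The libraries were pools of the same mice in both classes, so these p-values measure the spread between 3 pools.

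**Figure D1:**
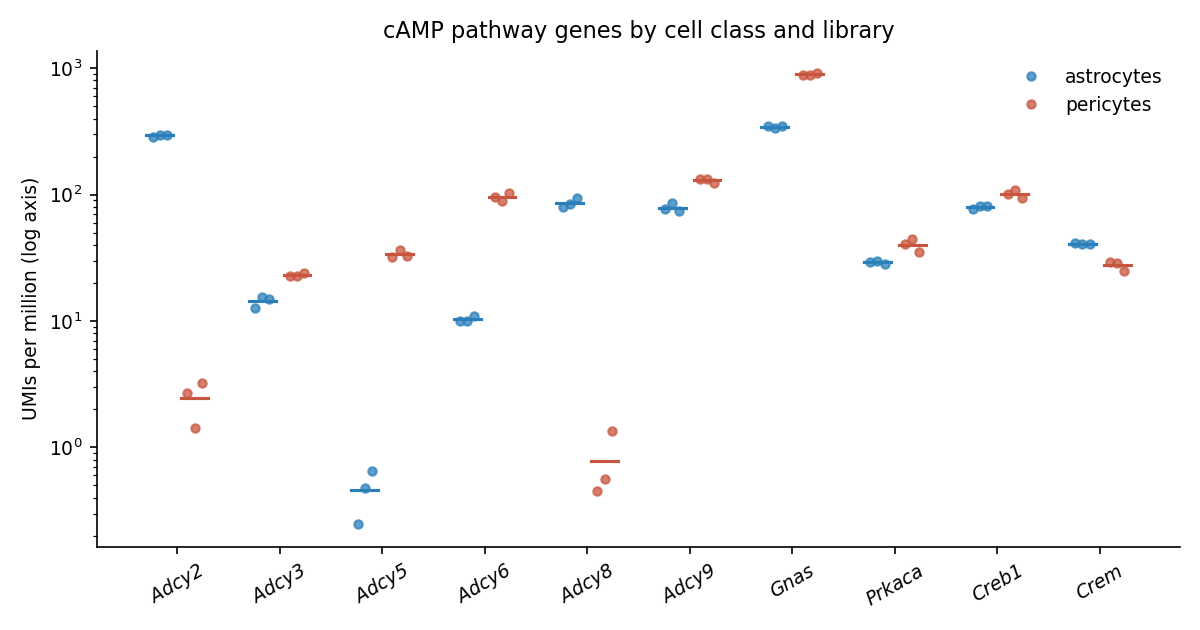
Levels of the 10 genes in CPM (log axis) in astrocytes (blue) and pericytes (red). Each point is 1 of 3 libraries and each bar is their mean; *Adcy2* and *Adcy8* lie near 294 and 86.0 in astrocytes and below 3.3 in pericytes, and *Adcy5* lies near 33.7 in pericytes and below 0.7 in astrocytes.

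*Adcy2* (ENSMUSG00000021536, chromosome 13 of GRCm38, 68620043 to 68999541, reverse strand) had 287, 298 and 298 CPM in the astrocytes of libraries 1, 2 and 3. In pericytes it had 2.72, 1.41 and 3.22. The 3 astrocyte libraries lay within a narrow band far above the pericyte libraries. Astrocytes exceeded pericytes by a log2 fold change of 7.09 (standard error, SE, 0.122, edgeR quasi-likelihood adjusted p = 2.48e-27, n = 3 libraries). *Adcy8* (ENSMUSG00000022376, chromosome 15, 64697084 to 64922296, reverse strand), the calcium-stimulated cyclase, had 80.2, 84.2 and 93.6 CPM in astrocytes. It had 0.453, 0.565 and 1.34 in pericytes, which are 2, 2 and 5 UMIs. This was a log2 fold change of 6.99 (SE 0.173, edgeR quasi-likelihood adjusted p = 1.23e-23).

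The few UMIs of these cyclases in pericytes were set beside those of astrocyte markers. The pericyte level was 0.832% of the astrocyte level for *Adcy2* and 0.915% for *Adcy8*. For the astrocyte markers *Slc4a4*, *Aqp4*, *Gja1* and *Aldoc* it was 0.812%, 0.940%, 0.943% and 1.25%. The cyclase ratios lay inside this range. Of the other astrocyte markers, *Slc1a2* was at 0.910%, *Slc1a3* at 2.66%, *Atp1b2* at 82.8% and *Gfap* at 0%. Whether the cyclase UMIs of pericytes were background or low expression was not tested. Free RNA and astrocyte material captured with a pericyte cannot be told apart here. With every cell thinned to 3000 UMIs, which left out 541 astrocytes and 157 pericytes below that depth, 52.0% of astrocytes and 0.761% of pericytes had an *Adcy2* UMI, and 19.4% and 0.238% had an *Adcy8* UMI. Without thinning the shares of astrocytes were 80.2% and 38.2%, and those of pericytes were 1.19% and 0.398%.

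*Adcy5* (ENSMUSG00000022840, chromosome 16, 35154877 to 35305738, forward strand) showed the opposite pattern. In pericytes its levels were 31.9, 36.7 and 32.5 CPM. In astrocytes they were 0.247, 0.479 and 0.647, from 9, 13 and 18 UMIs. Its log2 fold change, astrocytes over pericytes, was −6.02 (SE 0.220, edgeR quasi-likelihood adjusted p = 1.39e-19). *Adcy6* (ENSMUSG00000022994, chromosome 15, 98589973 to 98610076, reverse strand), which encodes the other calcium-inhibited cyclase, had 95.5, 89.3 and 103 CPM in pericytes and 10.1, 10.1 and 11 in astrocytes. Its log2 fold change was −3.0 (SE 0.0764, edgeR quasi-likelihood adjusted p = 2.62e-23).

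The astrocyte level of *Adcy6* was 10.8% of the pericyte level and that of *Adcy5* was 1.36%. The pericyte markers *Kcnj8*, *Abcc9* and *Higd1b* had astrocyte levels between 0.0408% and 0.0492% of those in pericytes, so both cyclases lay above that proportion. The class rule allows an astrocyte at most 3 UMIs of *Vtn* and *Rgs5*, which may lower these proportions. *Pdgfrb* and *Notch3*, which astrocytes also contained at 71.9 and 40.5 CPM, were at 4.14% and 3.87%. At 3000 UMIs a cell, *Adcy6* was found in 24.1% of pericytes and 3.13% of astrocytes, and *Adcy5* in 8.75% and 0.110%.

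The pericyte class also held cells with smooth muscle transcripts. A split by the summed UMIs of *Acta2*, *Tagln* and *Myh11* was chosen after seeing the data. In the 1666 barcodes without such a UMI, *Adcy5* had 31.3 CPM and *Adcy6* 88.1. In the 68 barcodes with 5 or more, they had 61.9 and 159, from 30 and 77 UMIs, and *Adcy9* had 200.2 against 120.3. These barcodes were deeper, with a median of 6711 against 4809 UMIs, and had less of the pericyte channel gene *Kcnj8* (444 against 1086). *Gnas* differed little, at 929 and 892 CPM. With the 68 barcodes left out, the fold changes of *Adcy5* and *Adcy6* kept their direction and passed the test.

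*Adcy9* (ENSMUSG00000005580, chromosome 16, 4287529 to 4420498, reverse strand) was detected in both classes. It had 76.3, 86.0 and 74.2 CPM in astrocytes and 133, 133 and 123 in pericytes, and no library of the classes overlapped in CPM. The share of all genes that keep the classes apart in this way was not counted. Its log2 fold change was −0.51 (SE 0.0573, edgeR quasi-likelihood adjusted p = 6.09e-09). *Adcy3* (ENSMUSG00000020654, chromosome 12, 4133103 to 4213525, forward strand) had 12.8, 15.5 and 14.9 in astrocytes and 22.9, 22.9 and 24.2 in pericytes. This gave a log2 fold change of −0.49 (SE 0.112, edgeR quasi-likelihood adjusted p = 2.58e-04).

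Each class therefore had its own mixture of cyclase transcripts. Of all UMIs of 10 cyclase genes counted in astrocytes, 60.2% were *Adcy2*, 17.5% *Adcy8* and 16.1% *Adcy9*. Of those in pericytes, 43.7% were *Adcy9*, 32.2% *Adcy6*, 11.3% *Adcy5* and 7.83% *Adcy3*. These shares are of UMIs and are not corrected for gene length. They varied little between libraries, with *Adcy2* between 59.7% and 60.8% of the astrocyte cyclase UMIs and *Adcy9* between 40.8% and 45.3% of those of pericytes. In astrocytes thinned to 3000 UMIs, *Adcy2* and *Adcy8* were found together in 11% of cells, where the product of their shares is 10.1%. *Adcy5* and *Adcy6* were found together in 2.43% of pericytes, where the product is 2.11%. Both pairs were thus found together somewhat more often than the product of their shares. In astrocytes, *Adcy8* and *Adcy9* were found together in 4.26% of cells, where the product is 3.64%. For *Adcy9* and *Adrb1* the value was 1.14% and the product 1.22%. Whether these differences exceed counting error was not tested.

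Among the cyclases outside the 10 genes, 2 of 4 passed the filter on low counts. Both then passed the test, as did 79.6% of all genes tested. Each passed the filter only through the class where it was high, so its test adds little to the counts below. *Adcy4* had 112 UMIs in pericytes and 1 in astrocytes, a level 877 times as high in pericytes (95% interval of the counts 154 to 34928). *Adcy10*, the soluble cyclase that responds to bicarbonate, had 4.34 CPM in astrocytes and 0.523 in pericytes, from 403 and 6 UMIs, with a log2 fold change of 3.28 (SE 0.485). Of the endothelial markers, pericytes contained mainly *Flt1*, as given above. The part of endothelial material in the *Adcy4* value was not tested.

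*Gnas* (ENSMUSG00000027523, chromosome 2, 174284320 to 174346744, forward strand), which codes for the subunit that activates all of these membrane cyclases, was the most abundant of the 10 genes by UMIs in both classes. It had 348, 338 and 347 CPM in astrocytes and 879, 887 and 911 in pericytes. As astrocytes over pericytes this was a log2 fold change of −1.16 (SE 0.0477, edgeR quasi-likelihood adjusted p = 2.10e-18). At 3000 UMIs a cell 59.4% of astrocytes and 91.8% of pericytes had a UMI of it. The locus has several promoters, and the counts pool its transcripts.

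Of the 6 other G protein α subunits, 2 were higher and 3 lower in astrocytes, against 42.8% and 36.9% of all genes tested. The median log2 fold change was −0.13 against 0.10 for all genes. *Gnao1*, the abundant Go subunit of neural cells, had 747 CPM in astrocytes and 62.5 in pericytes, a log2 fold change of 3.79 (SE 0.0651). *Gnai1*, *Gnai2* and *Gnai3*, which encode subunits that inhibit adenylyl cyclase, were all lower in astrocytes, by log2 fold changes of −2.0, −0.95 and −0.79. *Gnaz* was higher by 0.53 (edgeR quasi-likelihood adjusted p = 0.00523), and by 0.31 with scaling by library size alone (adjusted p = 0.0929). *Gnal*, the Gs-type subunit of olfactory and striatal neurons, did not pass (log2 fold change 0.61, edgeR quasi-likelihood adjusted p = 0.124).

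*Prkaca* (ENSMUSG00000005469, chromosome 8, 83972993 to 83996443, forward strand) had 29.1, 30.1 and 28.4 CPM in astrocytes and 40.5, 44.9 and 35.4 in pericytes. In CPM, which is not the scale of the fit, the libraries of the classes did not overlap. The share of all genes that separate the classes in this way was not counted. The log2 fold change was −0.25 (SE 0.0825, edgeR quasi-likelihood adjusted p = 0.00727). DESeq2 gave an adjusted p of 0.153 for the same gene. Leaving out library 1 or library 2 gave 0.0510 and 0.0686. Scaling by library size alone, added after seeing the data, gave a log2 fold change of −0.47 (edgeR quasi-likelihood adjusted p = 2.16e-05).

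Of 8 other kinase subunits and inhibitors, 7 were lower in astrocytes (36.9% of all genes tested) and 1 was higher (42.8%). The median log2 fold change was −1.76. *Prkar1b*, *Prkar2b* and *Pkig* fell furthest, with log2 fold changes of −5.55 (SE 0.125), −3.95 (0.139) and −2.72 (0.0525). These encode 2 regulatory subunits and an inhibitor of the kinase. The inhibitor gene *Pkib* was the exception, with 103 UMIs in astrocytes and 1 in pericytes, a ratio of 13.2 (95% interval of the counts 2.31 to 525). It passed the filter on low counts only through astrocytes.

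The EPAC genes split between the classes. *Rapgef4* was lower in astrocytes by a log2 fold change of −7.42 (SE 0.0769, edgeR quasi-likelihood adjusted p = 4.50e-32), whereas *Rapgef3* was higher by 1.39 (SE 0.0652, adjusted p = 4.91e-17). Of 9 A-kinase anchoring proteins, which tether the kinase near its targets, 4 were higher and 5 lower in astrocytes. Among all genes tested these shares were 42.8% and 36.9%, and the median of the 9 was −0.27. *Akap12* had 463 CPM in pericytes and 1.41 in astrocytes (log2 fold change −8.14, SE 0.0794), and *Akap6* had 221 in astrocytes and 20.1 in pericytes (log2 fold change 3.65, SE 0.0889). *Akap5* was higher in astrocytes by 2.26 and *Akap9* by 0.53, and *Akap7* and *Akap13* were lower by −1.33 and −1.28.

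**Figure D2:**
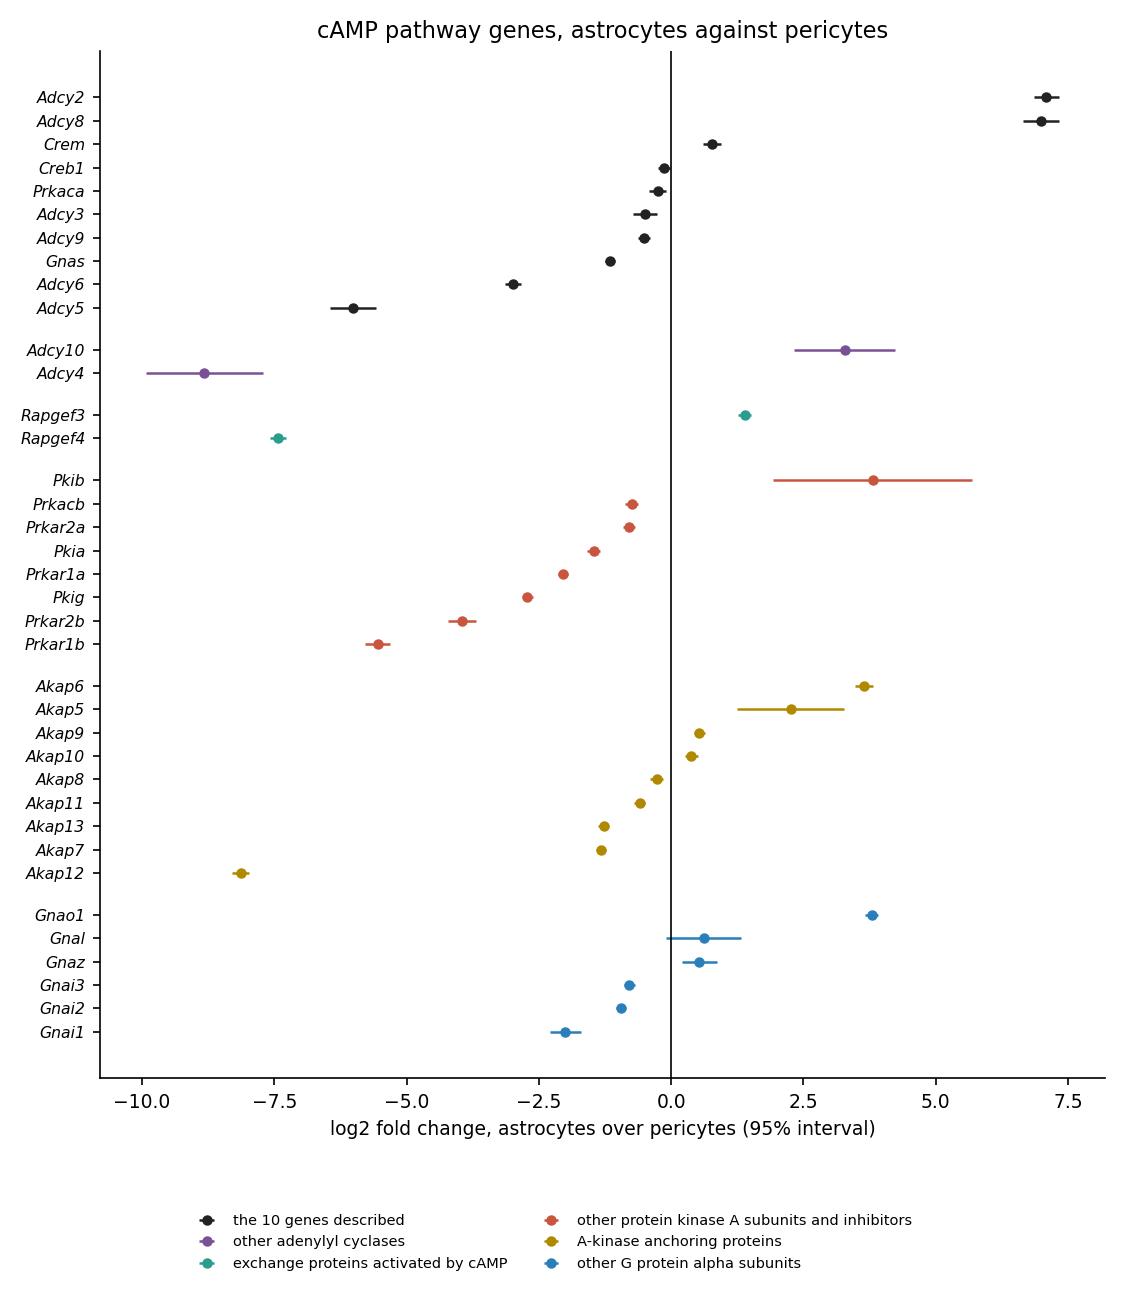
Log2 fold change of astrocytes over pericytes (horizontal axis) for the 10 genes and the other genes of 5 lists that were tested, with 95% intervals of 1.96 standard errors. *Adcy2* and *Adcy8* lie near 7 on the astrocyte side, and *Adcy5*, *Rapgef4*, *Prkar1b*, *Akap12* and *Adcy4* lie below −5 on the pericyte side.

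*Creb1* (ENSMUSG00000025958, chromosome 1, 64532645 to 64604548, forward strand) had 77.2, 81.4 and 81.9 CPM in astrocytes and 101, 109 and 94.5 in pericytes. Its log2 fold change was −0.13 (SE 0.0596, edgeR quasi-likelihood adjusted p = 0.0494), and the approximate 95% interval was −0.25 to −0.013. This call was the least stable of the 10: DESeq2 gave an adjusted p of 0.370, the fit without the library block 0.0666, and sums per mouse and class, added after seeing the data, gave a log2 fold change of 0.027 (edgeR quasi-likelihood adjusted p = 0.783). Scaling by library size alone kept it, at −0.35 (adjusted p = 1.60e-05). In CPM, which is not the scale of the main fit, the libraries of the classes did not overlap. How many of all genes keep the classes apart in this way was not counted. *Crem* (ENSMUSG00000063889, chromosome 18, 3266048 to 3337748, reverse strand), whose gene makes activators and, from an internal promoter, the inducible repressor ICER, was higher in astrocytes. It had 41.3, 40.8 and 40.4 CPM in astrocytes and 29.2, 28.8 and 25.0 in pericytes. Its log2 fold change was 0.77 (SE 0.0857, edgeR quasi-likelihood adjusted p = 5.32e-09).

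Of the 6 other CREB family members and coactivators, 2 were higher, 2 were lower and 2 did not pass, with a median of −0.095. Among all genes tested, 42.8% were higher and 36.9% lower. The CREB coactivator genes differed, with *Crtc1* higher in astrocytes by 1.74 (SE 0.159) and *Crtc2* lower by −1.29 (0.145). *Crtc3* was higher by 0.24, and by 0.020 with scaling by library size alone (edgeR quasi-likelihood adjusted p = 0.737), and *Ep300* was lower by −0.34. *Atf1* and *Crebbp* had log2 fold changes of −0.13 and −0.057 (adjusted p = 0.138 and 0.287). With scaling by library size alone both were lower in astrocytes, by −0.35 and −0.28 (edgeR quasi-likelihood adjusted p = 4.68e-04 and 1.44e-05).

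At the receptor end of the pathway, 7 of 10 Gs-coupled receptor genes passed the filter, and their median was 1.57. Higher in astrocytes were 4 and lower 3, against 42.8% and 36.9% of all genes tested. *Adrb1*, *Vipr2* and *Drd1* passed the filter only through the class where they were high, so their tests add little to the counts. *Adrb1* had 22.7 CPM in astrocytes and 2 UMIs in all pericytes, a ratio of 132 (95% interval of the counts 36.6 to 1094). *Vipr2*, a receptor for the peptides VIP and PACAP, had 100 UMIs in astrocytes and 2 in pericytes, a ratio of 6.39 (1.72 to 53.5). *Adora2b*, an adenosine receptor gene, was higher in astrocytes by a log2 fold change of 1.69 (SE 0.0971). *Adora2a*, the other Gs-coupled adenosine receptor gene, was lower by −7.84 (0.128), *Drd1* had 21 UMIs in pericytes and 1 in astrocytes, and *Ptger4* was lower by −1.58 (0.195).

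Of 7 genes known to be induced by cAMP and CREB, 3 were higher and 4 lower in astrocytes, with a median of −0.92. Among all genes tested, 42.8% were higher and 36.9% lower. *Ppargc1a*, the coactivator of mitochondrial biogenesis, had 197 CPM in astrocytes and 3.41 in pericytes (log2 fold change 6.09, SE 0.126). *Sik1*, a kinase that restrains the CREB coactivators, had 3.10 in astrocytes and 129 in pericytes (log2 fold change −5.19, SE 0.0987). *Fos* and *Nr4a2* were also higher in astrocytes, by 3.33 (340 UMIs against 5) and 2.70 (91 against 2). *Nr4a2* passed the filter on low counts only through astrocytes. *Dusp1* and *Nr4a1* were lower, by −1.32 and −1.18.

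To order the 10 genes within a class, levels were divided by the summed length of the exons of each gene in GENCODE vM21. In astrocytes *Adcy2* was highest with 69.9 CPM per kb of exon, followed by *Gnas* (30.8), *Adcy9* (15.2), *Prkaca* (11.7), *Adcy8* (10.6), *Crem* (6.93), *Creb1* (5.83), *Adcy3* (2.30), *Adcy6* (1.53) and *Adcy5* (0.0637). Only *Prkaca* and *Adcy8* had overlapping ranges over the libraries, 11.4 to 12.1 and 9.84 to 11.5. In pericytes *Gnas* was highest (79.8), followed by *Adcy9* (25.0), *Prkaca* (16.2), *Adcy6* (14.1), *Creb1* (7.39), *Crem* (4.69), *Adcy5* (4.69), *Adcy3* (3.73), *Adcy2* (0.582) and *Adcy8* (0.0965). Here *Prkaca* and *Adcy6* overlapped, as did *Crem* and *Adcy5*. Per kb of the whole gene, introns included, *Gnas* led in astrocytes too (5.51) and *Adcy2* came after *Prkaca* and *Creb1* (0.776), since *Adcy2* spans 379 kb with 4.21 kb of exon. Whether intronic reads were counted was stated by no source used here, so the order between genes of very different length depends on the scale. A UMI marks 1 captured transcript, so UMI counts need not rise with exon length. Without division by length, *Gnas* (344 CPM) was above *Adcy2* (294) in astrocytes, the reverse of the order per kb of exon.

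Levels also differed among astrocytes. Astrocytes were clustered without the 10 genes into 6 clusters, and the values by cluster are a description with no test. Cluster 1 (3255 cells), cluster 2 (2365 cells, led by *Chchd10*, *Lmo1* and *S100a13*), cluster 3 (1756 cells, led by *Zbtb16*, *Kcnma1* and *Lncpint*) and cluster 4 (962 cells, led by *Nkx6-2*, *Gria1* and *Igsf1*) held most cells and had cells of all 3 libraries. Cluster 5 (365 cells) had a median of 2539 UMIs and of 6.74% mitochondrial UMIs, and cluster 6 (54 cells) was led by the cell cycle genes *Hist1h1b*, *Top2a* and *Mki67*.

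*Adcy2* had 469, 477 and 460 CPM in the 3 libraries of cluster 3 and 185, 203 and 195 in cluster 2, and lay between them in clusters 1 and 4 (302 and 322 over the cluster). *Adcy9* had 155, 170 and 147 in cluster 3 and 48.9, 55.1 and 43.8 in cluster 2. *Crem* followed the same order, with 65.9 in cluster 3 and 29.3 in cluster 2, as did *Creb1* with 110 and 64.6. *Adcy8* was high in clusters 3 and 4 (141 and 156) and low in cluster 2 (45.9). In cluster 1 it had 78.2. *Adcy9* had 69.9 in cluster 4 and 74.5 in cluster 1. *Adcy5* had 0.938 in cluster 4, from 9 UMIs, and 0.257 in cluster 1, from 10.

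*Gnas* ran the other way. It had 153, 145 and 158 CPM in the libraries of cluster 3 and 457, 450 and 488 in cluster 2, and *Prkaca* had 22.0 and 33.8 over these clusters. The clusters also differed in depth, with medians of 10192 UMIs in cluster 2 and 7389.5 in cluster 3, and the housekeeping gene *Gapdh* was among the 10 leading genes of cluster 2. The nuclear RNA *Malat1*, chosen after seeing the data, made up 87610 CPM in cluster 2 and 73516 in cluster 3. In cluster 5, with its low depth and high mitochondrial share, *Gnas* had 820 CPM and *Malat1* 13705. There *Adcy2* had 82.8 and *Adcy9* 14.2, from 99 and 17 UMIs. The part of RNA content or quality in these differences was not tested. In the cell cycle cluster *Adcy2*, *Adcy8* and *Adcy9* had 47, 8 and 14 UMIs in all, at 30.9, 5.26 and 9.20 CPM, while *Creb1* had 131 and *Crem* 50.6.

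**Figure D3:**
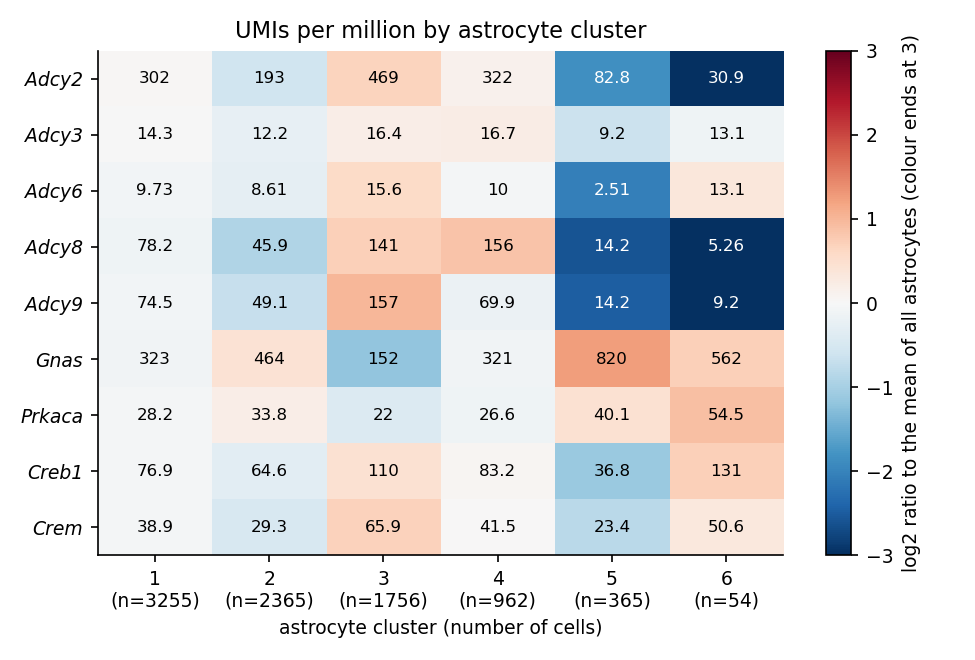
CPM (number in each cell) of 9 genes in the 6 astrocyte clusters, coloured by the log2 ratio to the mean of all astrocytes, with *Adcy5* left out because it had 40 astrocyte UMIs. *Adcy2*, *Adcy9*, *Creb1* and *Crem* are highest of the 4 large clusters in cluster 3, where *Gnas* is lowest, and *Adcy8* is high in clusters 3 and 4.

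Adenylyl cyclase is the direct target of the β1-adrenergic receptor through Gαs, so the genes were compared between astrocytes with and without an *Adrb1* UMI. At least 1 was found in 1647 astrocytes (18.8%) and in 2 of 2260 pericytes (0.0885%), whose median depth was 5006 UMIs. Positive astrocytes were deeper, with a median of 11597 against 9477 UMIs. Each was therefore paired with a negative astrocyte of the same library whose total UMIs differed by at most 2%, which gave 1633 pairs with medians of 11574 and 11577 UMIs.

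No difference in the 10 genes between cells with and without a detected *Adrb1* UMI passed the test. The 1633 matched positive cells held only 2047 *Adrb1* UMIs, so a negative cell can hold *Adrb1* transcripts that were not captured. The split is by detection, and a difference that goes with *Adrb1* expression could be diluted in it. The intervals below apply to this split only. Of the 10 genes, 9 passed the filter on low counts and 0 passed an adjusted p of 0.05 in edgeR's quasi-likelihood test, where 1.97% of 13007 genes did and 1465 had an unadjusted p under 0.05. One of the 9 had an unadjusted p under 0.05, and 0 passed in DESeq2. The median log2 fold change of positive over negative cells was 0.0019 for the 9 genes and 0.0035 for all genes. *Adcy5*, the gene that was not tested, had 1 UMI in positive cells and 7 in negative ones.

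*Adcy2* had 278, 304 and 313 CPM in positive cells and 283, 310 and 306 in negative cells of libraries 1, 2 and 3. The order of the 2 kinds of cell was not the same in every library. The log2 fold change was 0.0019 (SE 0.0386), with an approximate 95% interval of −0.074 to 0.078. *Gnas* had 345, 349 and 347 in positive cells and 350.2, 336 and 339 in negative cells, a log2 fold change of 0.029 with an interval of −0.044 to 0.10. For *Adcy8* the log2 fold change was −0.056 (−0.17 to 0.062), for *Creb1* −0.080 (−0.20 to 0.042), for *Crem* 0.028 (−0.12 to 0.18) and for *Prkaca* 0.00095 (−0.18 to 0.18). The lower counts of *Adcy3* and *Adcy6* gave wider intervals, −0.37 to 0.15 and −0.13 to 0.50, around log2 fold changes of −0.11 and 0.19. *Adcy6* was higher in positive cells in all 3 libraries, at 9.51, 10.1 and 10.8 CPM against 7.07, 9.65 and 10.5 (edgeR quasi-likelihood adjusted p = 0.737). The share of all genes with the same order in every library was not counted.

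*Adcy9* came closest to a difference by p-value. It had 85.0, 92.9 and 77.7 CPM in positive cells and 69.3, 80.2 and 81.8 in negative cells, so positive cells were higher in 2 of 3 libraries. The log2 fold change was 0.16 (SE 0.0657, unadjusted p = 0.0240, edgeR quasi-likelihood adjusted p = 0.323). It passed without matching on total UMIs (0.17, edgeR quasi-likelihood adjusted p = 0.0292) and without library 3 (0.26, adjusted p = 0.0440). Over the other alternatives its log2 fold change was between 0.076 and 0.17. Of the astrocyte markers, *Aqp4* was higher in positive cells by 0.15 (edgeR quasi-likelihood adjusted p = 0.0163), and of the neuron markers *Rbfox3* was lower by −3.38 (adjusted p = 3.34e-06). The part of these in the *Adcy9* value was not tested.

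Of the 39 other pathway genes tested here, 0 passed an adjusted p of 0.05 in edgeR's quasi-likelihood test and 6 had an unadjusted p under 0.05. The nearest was *Rapgef4*, chosen after its value was seen, which was lower in positive cells by −1.41 (SE 0.398, adjusted p = 0.0740). This change rests on a low level, 1.71 CPM over all astrocytes.

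**Figure D4:**
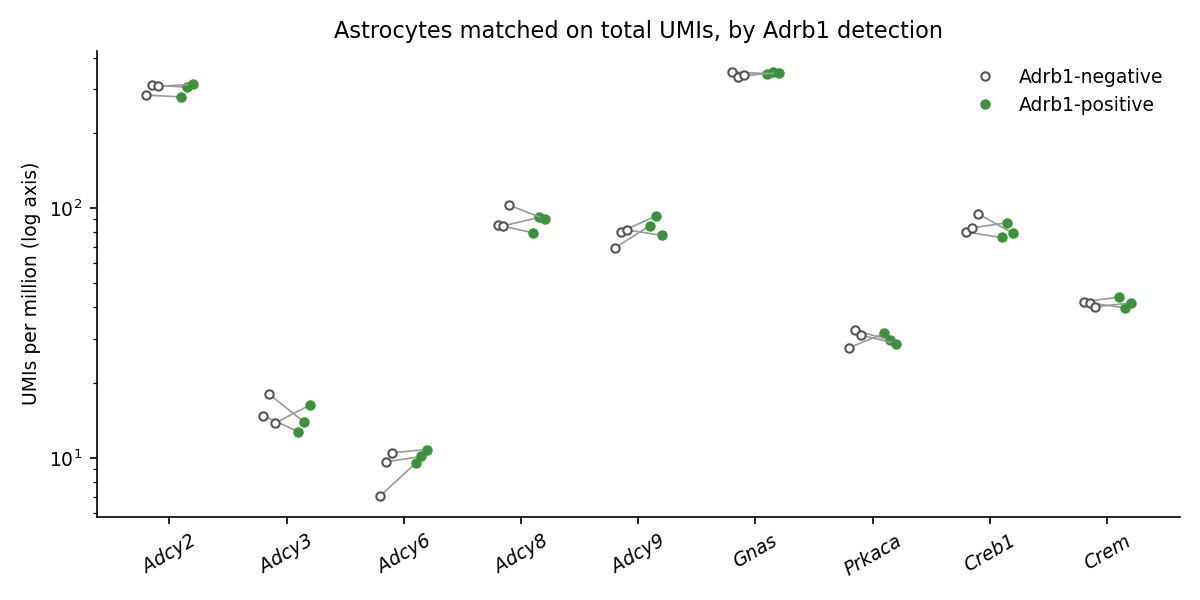
CPM (log axis) of 9 genes in *Adrb1*-negative (open) and *Adrb1*-positive (green) astrocytes matched on total UMIs, with a line for each of the 3 libraries. The lines are close to level for *Adcy2* and *Gnas*, and rise in 2 of 3 libraries for *Adcy9*.

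The groups of mice were compared on sums per mouse of the cells whose hashtag was called for a listed mouse, 1893 astrocytes (45 to 228 per mouse) and 879 pericytes (38 to 106 per mouse). The assignment of cells to mice was uncertain in both classes. The strongest hashtag had a median of 4 UMIs on astrocytes and 18 on pericytes, the next had 2 and 3, 31.7% and 31.9% of singlets carried a hashtag of no listed mouse, and 57.0% and 59.7% of the cells kept their mouse when the hashtag quantile was lowered to 0.95.

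In astrocytes 9 genes were tested over 6 pairs of groups, and 0 of 54 comparisons passed an adjusted p of 0.05 in edgeR's quasi-likelihood test or in DESeq2. Only *Crem* in 2 comparisons had an unadjusted p under 0.05. The background was 0% of 10140 genes in every pair, with between 333 and 538 genes at an unadjusted p under 0.05. *Crem* had 44.6, 23.7, 29.2 and 29.0 TMM-normalized CPM in the NoFR mice, 45.9, 48.1, 56.2 and 46.0 in the FC mice and 38.9, 56.4, 43.4 and 42.5 in the FR mice. All NoFR mice were below all FC mice, by 44.6 against 45.9 at the nearest, and NoFR and FR mice overlapped. How many of all genes keep 2 groups apart in this way was not counted. The NoFC mice had 55.8, 41.4, 46.9 and 31.5 and overlapped with every other group.

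The log2 fold change of *Crem* was −0.42 for NoFR over FC (SE 0.197, unadjusted p = 0.0390, edgeR quasi-likelihood adjusted p = 0.891) and 0.39 for FR over NoFR (SE 0.179, unadjusted p = 0.0372, adjusted p = 0.999). Without the mitochondrial filter on cells these were −0.11 and 0.12, and without the library term −0.57 and 0.45. Without the second NoFR mouse they were −0.26 and 0.26, without the first −0.66 and 0.59, and without the fourth FR mouse the second was 0.25. Within library 1, the means of 2 mice each were 34.2 in NoFR, 47.0 in FC and 47.6 in FR. Library 2 held no NoFR mice and library 3 no FC mice.

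For the other 8 genes no pair of groups had an unadjusted p under 0.05. *Gnas* had 331 ± 25.3 (SD, n = 4 mice) in NoFC mice, 332 ± 14.0 in FC mice, 353 ± 24.9 in NoFR mice and 346 ± 17.6 in FR mice. *Adcy2* had 291 ± 29.5, 297 ± 16.3, 287 ± 15.7 and 306 ± 14.7 in the same order, and *Adcy8* 75.1 ± 10.3, 86.8 ± 18.3, 91.6 ± 12 and 94.9 ± 13.2. *Adcy9* had 77.9 ± 17.9, 85.2 ± 13.5, 69.2 ± 8.22 and 76.4 ± 12.1, and *Creb1* 85.6 ± 15.1, 83.8 ± 4.60, 78.4 ± 5.13 and 80.4 ± 8.41. For *Gnas*, the gene of the 10 with the most astrocyte UMIs, the genes with the most similar log2 levels over the 16 mice were *Tmem230* (Pearson's r = 0.867), *Anapc16* (0.843) and *Rarres2* (0.836), chosen out of 9260 genes. The points share libraries and depth. Of 28 other pathway genes tested in astrocytes, 0 of 168 comparisons passed and 11 had an unadjusted p under 0.05.

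In pericytes, 6 of the genes passed the filter on low counts. *Adcy2*, *Adcy3*, *Adcy8* and *Crem* were not tested. None of 36 comparisons passed an adjusted p of 0.05 in edgeR's quasi-likelihood test or in DESeq2, and 4 had an unadjusted p under 0.05. The background was 0.95% of 5789 genes for NoFR over NoFC, 0.345% for NoFR over FC, 0.0864% for FR over NoFC, 0.0518% for FR over NoFR, and 0% for FC over NoFC and for FR over FC, where 268 and 290 genes had an unadjusted p under 0.05. In the other pairs that number was 519 for NoFR over NoFC, 430 for NoFR over FC, 328 for FR over NoFC and 358 for FR over NoFR.

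In the pericytes of NoFC mice *Adcy6* had 109, 87.1, 77.9 and 82.8 TMM-normalized CPM. The FC mice had 87.4, 118, 124 and 106, the NoFR mice 122, 170, 124 and 141, and the FR mice 72.1, 76.4, 118 and 109. All NoFR mice were above all NoFC mice and all FR mice, and overlapped with FC. *Crem*, *Adcy6* and *Adcy5* were named for an unadjusted p under 0.05 in edgeR's quasi-likelihood test, out of 90 comparisons in both classes. How many of all genes keep groups apart in this way was not counted. The log2 fold change was 0.64 for NoFR over NoFC (SE 0.224, unadjusted p = 0.00648, edgeR quasi-likelihood adjusted p = 0.252) and −0.54 for FR over NoFR (SE 0.227, unadjusted p = 0.0202, adjusted p = 0.662). When single mice were left out, the first ranged from 0.49 to 0.79 and the second from −0.73 to −0.41. With MULTIseqDemux they were 0.39 (unadjusted p = 0.0797, edgeR) and −0.66, and with the hashtag quantile of 0.95 they were 0.83 and −0.91. Within library 1 the means of 2 mice each were 146 in NoFR, 97.9 in NoFC and 74.3 in FR. Within library 3 they were 132 over 2 NoFR mice, 82.8 in the single NoFC mouse and 109 in the single FR mouse. The comparisons share the NoFR mice.

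Markers of the pericytes themselves moved between the same groups. Of 7 pericyte markers tested for NoFR over NoFC, 4 had an unadjusted p under 0.05. *Abcc9*, a subunit of a potassium channel, fell by 0.45 (edgeR quasi-likelihood adjusted p = 0.0269), *Kcnj8*, the pore of that channel, was at −0.29 (unadjusted p = 0.0151, edgeR), *Higd1b* at −0.23 (unadjusted p = 0.0222, edgeR) and the receptor gene *Pdgfrb* at 0.26 (unadjusted p = 0.00522, edgeR), all log2 fold changes. The summed level of the 7 was 26086 to 27103 TMM-normalized CPM in NoFR mice and 26922 to 30425 in NoFC mice. Of 8 astrocyte markers 7 were detected in the pericytes of each group and *Gfap* was at 0. Their summed level was 983 to 1148 in NoFR mice, above the 915 to 979 of NoFC mice, and 961 to 1103 in FR mice. How many of all genes separate in this way was not counted. Most of this sum was *Atp1b2*, the gene of the sorted antigen. Over the pericytes of the libraries it had 677 CPM, where the 8 markers summed to 881 to 977. Of the 3 astrocyte markers that were tested, *Slc1a3* was at 0.49 for NoFR over NoFC (unadjusted p = 0.0363, edgeR). For FR over NoFR, *Abcc9* was at 0.31 (unadjusted p = 0.00924, edgeR) and *Pdgfrb* at −0.21 (unadjusted p = 0.0216, edgeR). The part of these in the *Adcy6* values was not tested.

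*Adcy5*, at lower counts, was lowest in FR mice. The NoFC mice had 43.5, 27.7, 30.4 and 34.1 and the FC mice 55.9, 16.4, 35.4 and 53.1, from 44 and 42 UMIs. The NoFR mice had 40.6, 42.5, 25.4 and 51.7 and the FR mice 13.5, 21.8, 23.5 and 14.1, from 34 and 15 UMIs. FR mice were below all NoFR and all NoFC mice and overlapped with FC. The unadjusted p of FR over NoFC was not under 0.05 in edgeR's quasi-likelihood test. Here too the share of all genes that separate in this way was not counted. FR over FC gave a log2 fold change of −1.09 (SE 0.480, unadjusted p = 0.0271, edgeR quasi-likelihood adjusted p = 0.95) and FR over NoFR one of −1.19 (SE 0.489, unadjusted p = 0.0187, adjusted p = 0.662). With strict hashtag calls, added after seeing the data, these were −0.70 (unadjusted p = 0.0893, edgeR) and −0.95. The 3 smooth muscle markers summed to 52.9 to 617 in FR mice, 66.8 to 728 in NoFR mice, 112 to 380 in FC mice and 76.0 to 519 in NoFC mice, and the groups overlapped. *Myh11*, the smooth muscle myosin, was lower in FR than in FC mice by a log2 value of −0.57 (unadjusted p = 0.103, edgeR), and was at −0.34 for FR over NoFR (unadjusted p = 0.278, edgeR) and −0.80 for FR over NoFC (unadjusted p = 0.00965, edgeR quasi-likelihood adjusted p = 0.673). *Acta2* and *Tagln* were tested too and had no unadjusted p under 0.05 in these pairs (edgeR). The part of smooth muscle transcripts in the *Adcy5* values was not tested. Of 27 other pathway genes tested in pericytes, 0 of 162 comparisons passed and 14 had an unadjusted p under 0.05.

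**Figure D5:**
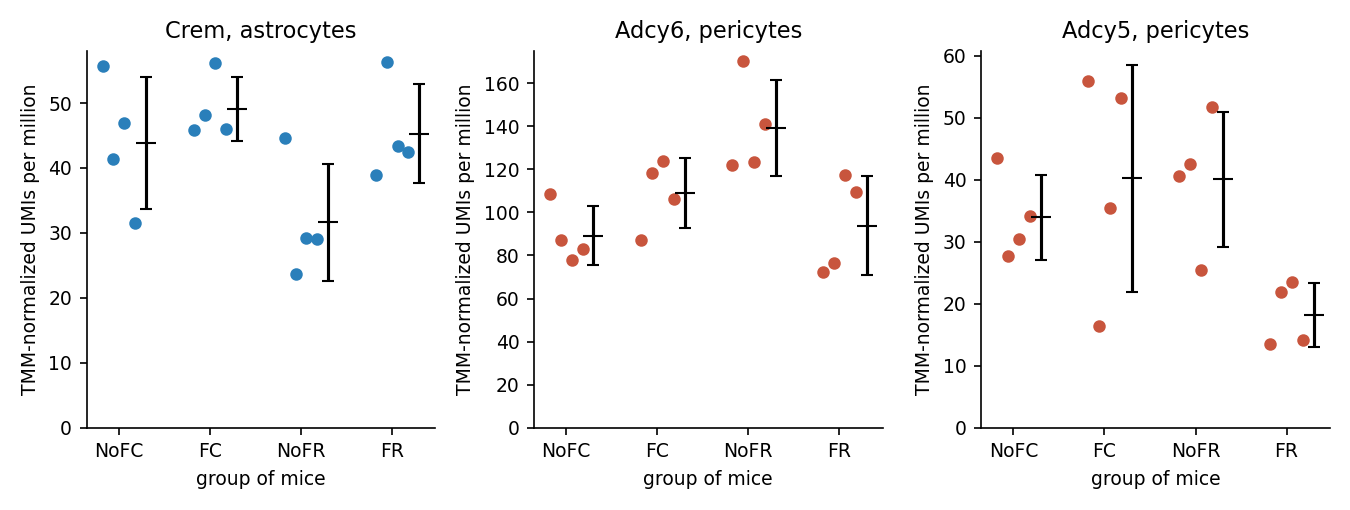
TMM-normalized CPM of *Crem* in astrocytes (blue) and of *Adcy6* and *Adcy5* in pericytes (red), the genes with an unadjusted p under 0.05 in some pair of groups. Each point is 1 of 4 mice a group and the bar shows mean ± SD. NoFR mice lie above NoFC and FR mice for *Adcy6*, and FR mice lie below NoFR and NoFC mice for *Adcy5*. The share of all genes that separate in this way was not counted.

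The difference of each group effect between astrocytes and pericytes was tested in mice with both sums. In this interaction 0 of 60 comparisons of the 10 genes passed an adjusted p of 0.05 in edgeR's quasi-likelihood test or in DESeq2, and 2 had an unadjusted p under 0.05. Some of the 10 genes were almost absent from 1 class. Over NoFC, FC, NoFR and FR mice, pericytes held 4, 4, 5 and 1 UMIs of *Adcy2* and 2, 0, 0 and 1 of *Adcy8*. Astrocytes held 2, 1, 4 and 3 of *Adcy5*. The comparisons of these 3 genes could hardly pass at such counts. Of 9934 genes, 0.0503% passed for FC over NoFC, 0.221% for NoFR over NoFC, 0.0604% for NoFR over FC, 0.0201% for FR over NoFR and 0% for FR over NoFC and FR over FC, where 476 and 472 had an unadjusted p under 0.05. That number was 620 for NoFR over NoFC and 647 for NoFR over FC. For *Adcy6*, the log2 fold change of NoFR over NoFC was 0.89 lower in astrocytes than in pericytes, at an interaction of −0.89 (SE 0.405, unadjusted p = 0.0287, adjusted p = 0.706). For *Adcy9*, that of NoFR over FC had an interaction of −0.60 (SE 0.257, unadjusted p = 0.0209, adjusted p = 0.626).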

How the data were processed

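Single-cell RNA-seq of ACSA-2-sorted amygdala cells was deposited by the authors as raw counts of UMIs for each gene and hashtag in 3 libraries. The submitters' processing notes name Cell Ranger 3.0 and mm10, and the headers of the matrices name Cell Ranger 7.0.0. Whether intronic reads were counted, which would raise the counts of long genes, was stated by no source used here. No column of per-sample values was left unmapped. The 10 genes, the 8 other pathway lists, the 8 marker lists and the tests were chosen with earlier results of these data known.

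UMI counts were summed per class and library, per *Adrb1* status and library, or per mouse and class. Genes passing filterByExpr were tested with edgeR 4.0.16 (TMM normalization, quasi-likelihood test, Benjamini-Hochberg adjustment over all genes), and the genes that define a class or status were left out of its test. Standard errors were derived from the F statistic, and intervals span 1.96 standard errors. The library was a block, since both classes of a library come from the same mice. The deviations of the classes of a library from their means correlated at r = 0.143, 0.107 and 0.0699 over 7666 genes, and those of matched *Adrb1*-positive and *Adrb1*-negative cells at 0.280, 0.157 and 0.122 over 9344 genes. For mice, cells had at least 100 genes and under 6% mitochondrial UMIs and were singlets in HTODemux of Seurat 5.3.0 (quantile 0.99), with at least 30 astrocytes or 10 pericytes a mouse. The library was a covariate. Scrublet marked 3 astrocytes and 0 pericytes as doublets, and the class rule leaves out barcodes with markers of both classes. Clusters came from scanpy (2000 variable genes, 30 components, Leiden resolution 0.4). The scripts were tested on simulated data. Intervals of ratios of counts and shares of cells cover counting error only.

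All 10 genes were named for the class and *Adrb1* comparisons, and those with an unadjusted p under 0.05 for groups of mice. Of the other lists, at most 3 genes per direction with the largest change among those passing the test were named for the class comparison, and genes that did not pass where at most 2 remained. For the member with the most astrocyte UMIs, the 3 genes with the most similar levels over mice were named. Alternatives were DESeq2, no filter on low counts, no replicate block or library term, other filters, thresholds, depth, doublet, matching and hashtag settings, and leaving out each library or mouse. Coordinates and lengths are from GENCODE vM21 (GRCm38), matched by gene ID, and promoters from RefSeq (GRCm38.p6).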

Additional observations from a re-analysis of the deposited data

Results flagged for a closer look

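In 6 of 80 groups of 4 mice, 1 mouse stood apart from the other 3 by Dixon's criterion at the 95% level, which chance alone gives in about 1 in 20 groups. That rate does not apply to the 3 of these groups in which 1 UMI was found in a single mouse, where the outcome is fixed. Nor does it apply to *Adcy8* in the pericytes of FC and of NoFR mice. It was at 0 in every mouse there, so none could stand apart. In the astrocytes of the third FR mouse *Adcy2* was at 328 TMM-normalized CPM, against 297 to 300 in the other FR mice. In those of the first FR mouse *Adcy6* was at 12.2, against 9.83 to 9.95. In those of the third FC mouse *Adcy5* was at 1.94, from 1 UMI, and at 0 in the other FC mice. In pericytes, *Adcy2* and *Adcy8* were each at 5.88 in the third FR mouse, from 1 UMI each, and at 0 in the other FR mice. *Creb1* was at 124 in the pericytes of the third FC mouse, against 94.4 to 98.7.

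The 2529 barcodes that met neither class rule also held these transcripts. Their summed level over the 10 genes was 1037 CPM, from 4468 UMIs, with 478 of *Gnas*, 195 of *Adcy2*, 91.0 of *Adcy9*, 42 of *Adcy6* and 13.2 of *Adcy5*. Of these barcodes 61.1% had at least 6% mitochondrial UMIs.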

How the results depend on the processing

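Alternatives changed no direction of *Adcy2*, *Adcy8*, *Crem*, *Adcy3*, *Adcy5*, *Adcy6*, *Adcy9* or *Gnas* between the classes, where they were tested, and 3 genes were called higher under each. The fit without the replicate block lost the call of *Creb1* (adjusted p = 0.0666 from edgeR) and changed no other call of the 10 genes. Sums per mouse and class, added after seeing the data as were scaling by library size, the smooth muscle filter and strict hashtag calls, called 3 genes lower (of fewer tested) and 6262 genes in all, and gave *Creb1* 0.027. Without 1 library, 5 to 7 genes were called lower and 11356 to 11746 genes in all. For *Adrb1* the genes called were 46 with DESeq2, 56 without the replicate block, 532 without matching (1 of the 10 genes), 139 with 3 negatives, 13 with sums per mouse, and 124 to 273 without 1 library (0 to 1 of the 10 genes). Values near 0 changed sign. Without matching, *Adcy3* was at 0.018, *Adcy6* at −0.0025, *Adcy8* at 0.043 and *Creb1* at 0.019. With 3 negatives, *Adcy2* was at −0.027, *Adcy3* at 0.052, *Adcy6* at −0.060, *Adcy8* at 0.020 and *Crem* at −0.022. With at least 2 *Adrb1* UMIs, *Adcy2* was at −0.035, *Adcy3* at 0.064 and *Gnas* at −0.021, and with sums per mouse *Adcy8* was at 0.17 and *Creb1* at 0.12. *Prkaca* was at −0.0078 with DESeq2, −0.0019 without the replicate block, −0.0077 under 6% mitochondrial UMIs and −0.0082 in another order of cells. Without 1 library the ranges were −0.017 to 0.014 for *Adcy2*, −0.28 to 0.014 for *Adcy3*, −0.13 to 0.0044 for *Adcy8*, −0.12 to 0.059 for *Prkaca*, −0.15 to 0.0040 for *Creb1* and −0.0011 to 0.067 for *Crem*. The causes were not tested. Over the 6 pairs of groups, the calls in astrocytes were 2 with DESeq2, 132 without the filter on low counts and 0 to 8 without 1 mouse. In pericytes they were 50, 131 and 54 to 98, and 31 with the hashtag quantile of 0.95. In the interaction they were 16 with DESeq2. MULTIseqDemux and strict hashtag calls gave too few astrocytes per mouse for a value. The few UMIs of *Adcy5* in astrocytes and of *Adcy2* and *Adcy8* in pericytes, and 38 to 106 pericytes per mouse, limit what could be detected.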
